A study of Homo sapiens with 4 samples.

Results

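Glycolysis turns glucose into pyruvate and lactate in the cytosol, and many tumor cells run it fast even in the presence of oxygen. The part called lower glycolysis here is taken widely, from the early step where glucose phosphate is turned into fructose phosphate. It splits the sugar into 3-carbon units, makes the ATP and NADH of the pathway and ends with the reduction of pyruvate to lactate, which returns NAD+ to the pathway. Several of these steps can be run by different isoforms, some found in most cells and others known mainly from brain, muscle or testis, and many of the genes carry binding sites for HIF1, the transcription factor of the response to low oxygen.

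The 10 genes described here encode enzymes from glucose phosphate isomerase to lactate dehydrogenase A, without phosphofructokinase and pyruvate kinase, which are described apart. They are GPI, ALDOA, ALDOC, TPI1, GAPDH, PGK1, PGAM1, ENO1, ENO2 and LDHA. They were taken by symbol, all 10 had a row among the 23228 gene symbols of the count files, and all 10 were among the 12706 genes with enough counts to be tested. RNA came from ES2, an established human ovarian cancer line grown in RPMI with serum, after 12 h with 10 nM EC359, a small-molecule inhibitor of the LIF receptor, or with vehicle (0.1% DMSO). Each treatment had 2 libraries. The study describes them as biologically independent, but the series' design text speaks of sequencing in duplicate and of combined reads, so the standard errors, intervals and p values below measure the spread between these libraries, which may be partly or wholly technical. No allele, knockout or transgene separates the groups.

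The libraries held from 25572494 to 31707553 reads counted on genes, and the EC359 libraries were the deeper ones. Of the epithelial and ovarian markers examined, KRT7, KRT8 and KRT18 were expressed (means of 7740, 647 and 7239 normalized counts with vehicle), PAX8 and WT1 were low (29.5 and 101), and MUC16, EPCAM and CDH1 had at most 2 reads in any library. Among markers of other cell types, PTPRC, CD3E and PECAM1 had at most 2 reads per library and LYZ, PDGFRB and ACTA2 at most 29, while CDH5, a cadherin best known from endothelium, had from 3118 to 3920. None of these ovarian, blood, endothelial or stromal markers was called by edgeR, and of the 7 that could be tested 0 were lower and 1 was higher at an unadjusted p under 0.05. DESeq2, limma voom and edgeR's exact test also called 0 of them. Over all 12706 tested genes, 2750 had an unadjusted p under 0.05 in edgeR's quasi-likelihood test, of either sign. That test called 0.795% of all tested genes lower and 0.299% higher at an adjusted p under 0.01. The mesenchymal markers VIM, FN1 and CDH2 were expressed and 0 were called by edgeR's quasi-likelihood test, with 1 lower at an unadjusted p under 0.05. VIM, at a log2 fold change of -0.17 (adjusted p = 0.0135), was called lower by the 3 other tools, and its part in the results was not tested.

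All 10 lower glycolysis genes had fewer normalized counts with EC359 than with vehicle, where normalized counts are reads scaled with TMM factors to the mean effective library size. Both EC359 libraries lay below both vehicle libraries for each of the 10, a pattern that 25.4% of all tested genes showed, and 552 of the 1247 tested genes with at least 5000 normalized counts. Fold changes ran from -0.52 to -0.14 on the log2 scale with a median of -0.27, against a median of 0.003 over all tested genes. In the quasi-likelihood test of edgeR, with p values adjusted by Benjamini and Hochberg's method over all tested genes, 6 of the 10 were lower at an adjusted p under 0.01: PGK1, LDHA, ALDOA, TPI1, ENO1 and GAPDH. None was higher at that threshold, at an unadjusted p under 0.05, or by DESeq2, limma voom or edgeR's exact test. Over all tested genes 0.795% were called lower and 0.299% higher. The 10 genes lie mostly among the highly expressed ones, and of the 1247 with at least 5000 normalized counts 4.41% were called lower. At an adjusted p under 0.05 the count was 9 of 10, beside 2.64% of all tested genes and 146 of those 1247, and PGAM1 was the exception. The calls rested on having both EC359 libraries and were lost without EC359 replicate 1 or without EC359 replicate 2. All 10 kept their sign, with a median log2 fold change of -0.256 without EC359 replicate 1 and -0.261 without EC359 replicate 2. In those fits the remaining EC359 library has no replicate and is assumed to vary as the vehicle libraries do. Without vehicle replicate 1 or vehicle replicate 2, 7 of the 10 passed.

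**Figure D1:**
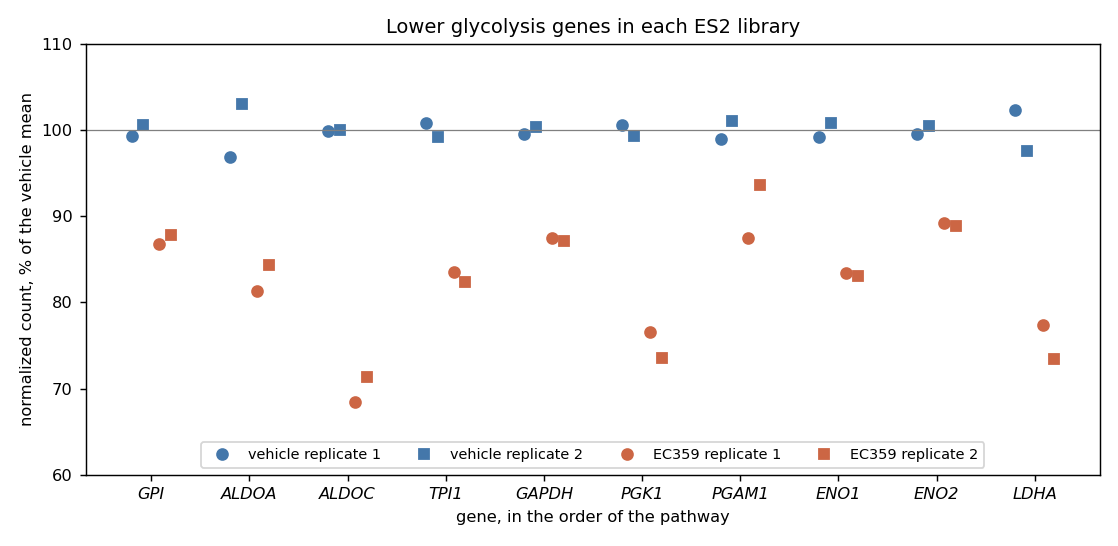
Normalized count of each lower glycolysis gene in each library, as a percent of that gene's vehicle mean, with genes in pathway order. Blue points are vehicle and orange points EC359 libraries (circle, replicate 1; square, replicate 2); for every gene both EC359 points sit below both vehicle points.

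Among the 10 genes, the largest called decreases were those of PGK1 and LDHA. PGK1 encodes phosphoglycerate kinase 1, which passes the phosphate of bisphosphoglycerate to ADP and so yields ATP. The vehicle libraries gave it 39957 and 39458 normalized counts and the EC359 libraries 30385 and 29201. The gap between treatments was many times the gap between replicates, and PGK1 fell by 25.0% (log2 fold change -0.41, standard error 0.030, 95% interval from -0.48 to -0.35, adjusted p = 0.00042). Among all 12706 tested genes its p was the 2nd lowest. LDHA, which encodes the M subunit of lactate dehydrogenase, had 57678 and 55010 normalized counts with vehicle and 43594 and 41378 with EC359. Its replicates lay further apart than those of PGK1, but the treatments did not overlap, and LDHA fell by 24.6% (log2 fold change -0.41, standard error 0.035, 95% interval from -0.48 to -0.33, adjusted p = 0.00058).

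ALDOA, TPI1 and ENO1 fell by nearly the same fraction. ALDOA encodes aldolase A, the main aldolase of most tissues, which splits fructose bisphosphate. It had 34019 and 36177 normalized counts with vehicle and 28544 and 29613 with EC359, the widest gap between vehicle replicates among the 10 genes on the log2 scale, and fell by 17.2% (log2 fold change -0.27, standard error 0.036, adjusted p = 0.00363). TPI1, which encodes the isomerase that joins both triose phosphates into the same route, had 16317 and 16059 normalized counts with vehicle and 13516 and 13329 with EC359. TPI1 fell by 17.1% (log2 fold change -0.27, standard error 0.030, adjusted p = 0.00229). ENO1 encodes alpha-enolase, which makes phosphoenolpyruvate, and it ranked 5th of all tested genes by mean normalized count. The vehicle libraries had 115428 and 117311 normalized counts of ENO1 and the EC359 libraries 97106 and 96723, so that it fell by 16.7% (log2 fold change -0.26, standard error 0.026, adjusted p = 0.00112). The 95% intervals of the 3 log2 fold changes covered each other, from -0.35 to -0.19 for ALDOA, from -0.34 to -0.20 for TPI1 and from -0.32 to -0.21 for ENO1.

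GAPDH encodes the dehydrogenase that makes the NADH of glycolysis and is widely used as a reference transcript. It ranked 8th of all tested genes by mean normalized count, with 98574 and 99408 in the vehicle libraries and 86621 and 86207 in the EC359 libraries. The replicates differed by under 1%, and GAPDH fell by 12.7% (log2 fold change -0.20, standard error 0.026, 95% interval from -0.25 to -0.14, adjusted p = 0.00363). Its interval did not overlap that of PGK1, the next step of the pathway, although the difference between both genes was not tested.

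Values of the remaining 4 genes missed the threshold. GPI, which encodes the isomerase that forms fructose phosphate and is also known as a secreted cytokine, missed it narrowly, with 8172 and 8277 normalized counts with vehicle and 7139 and 7225 with EC359 (log2 fold change -0.20, standard error 0.032, adjusted p = 0.0101). DESeq2, limma voom and edgeR's exact test each put it under 0.01. ALDOC encodes aldolase C, the aldolase known from brain, and had the most negative fold change of the 10 but also the fewest reads, 273 in each vehicle library against 235 and 232 in the deeper EC359 libraries. In normalized counts these were 303 and 304 with vehicle and 208 and 217 with EC359 (log2 fold change -0.52, standard error 0.10, 95% interval from -0.74 to -0.29, adjusted p = 0.0202). Its change was -30.1% with a 95% interval from -40.1% to -18.4%, the widest of the 10 genes. ENO2, which encodes gamma-enolase, a marker of neurons and neuroendocrine cells, had 4251 and 4291 normalized counts with vehicle and 3810 and 3797 with EC359 (log2 fold change -0.17, standard error 0.036, adjusted p = 0.0301). PGAM1, which encodes phosphoglycerate mutase 1, had 1835 and 1873 normalized counts with vehicle and 1622 and 1737 with EC359 (log2 fold change -0.14, standard error 0.053, 95% interval from -0.26 to -0.026, adjusted p = 0.153). On the log2 scale PGAM1 had the widest gap between EC359 replicates of the 10 genes.

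**Figure D2:**
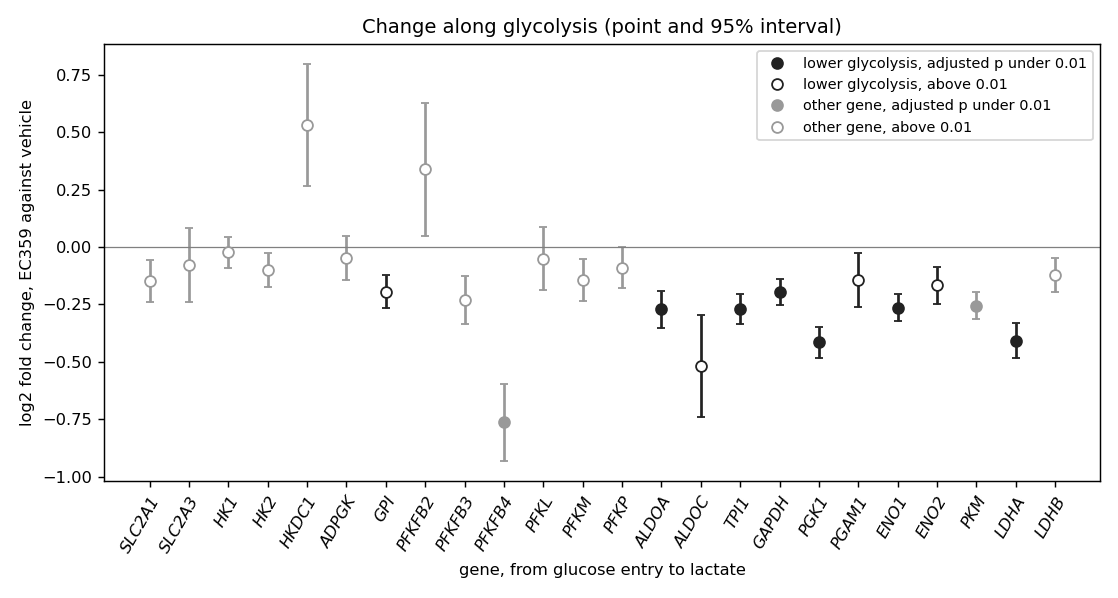
Log2 fold change of EC359 against vehicle with its 95% interval for the tested genes of glycolysis, ordered from glucose entry to lactate. Black marks the lower glycolysis genes and grey the other genes, with filled points at an adjusted p under 0.01; PGK1 and LDHA are at -0.41, LDHB at -0.12 and PFKFB4 at -0.76.

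The counting set aside reads aligned to more than a single place, and the 10 genes differ in how much of their sequence is shared with other places. For each gene the share of 50-base stretches of its transcript, the length of the reads, that also occur exactly elsewhere in GRCh37, for example in processed pseudogenes, was therefore measured. In PGAM1 90.7% of the stretches had such a copy, in 10 other 20-kb bins of the genome. The share was 42.6% for TPI1, 25.6% for GAPDH and 16.7% for LDHA, and it was at most 9.62% for the other 6 genes, with 0 for ALDOC. Counts of PGAM1 could thus come from only a small part of its transcript, and its fold change is the least certain in this respect. The processed copies of TPI1 had rows of their own: TPI1P2 with 630 to 714 reads and TPI1P3 with 17 to 25. Overlaps with other genes can affect counts as well. For genes on opposite strands this depends on the strand setting of the counting, which is not given in the sources used here. On the opposite strand, SPSB2 overlaps TPI1, PGAM4 overlaps the annotated span of PGK1, and ENO1-AS1, with 0 to 2 reads per library, overlaps ENO1. On the same strand, ATP7A overlaps the annotated span of PGK1 and LRRC23 overlaps ENO2. Whether these overlaps are present in the RefSeq set used for counting was not examined.

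Levels of the 10 genes were compared per kilobase of the representative annotated transcript, in normalized counts with vehicle. GAPDH was highest with 77036 per kilobase, followed by ENO1 with 65339, LDHA with 25142, ALDOA with 21401, TPI1 with 11982 and PGK1 with 8252. Far below them were GPI with 1994, ENO2 with 1862, PGAM1 with 1029 and ALDOC with 189. The order was the same with EC359, and in both treatments each gene's 2 libraries lay above both libraries of the next gene. Counted instead per kilobase of transcript stretches without a copy, PGAM1 stood at 11373 and lay between PGK1 with 9095 and TPI1 with 21670, while ALDOC stayed lowest with 195. Transcript lengths are those of the current annotation, and 3' ends of other length in the RefSeq set used for counting would shift these levels. Summed over the 10 genes, reads made up 1.32% and 1.33% of the counts on genes in the vehicle libraries and 1.11% and 1.11% in the EC359 libraries. This is a difference of -0.215 percentage points (exact permutation test, two-sided, p = 0.333, the smallest p that 2 libraries against 2 allow).

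**Figure D3:**
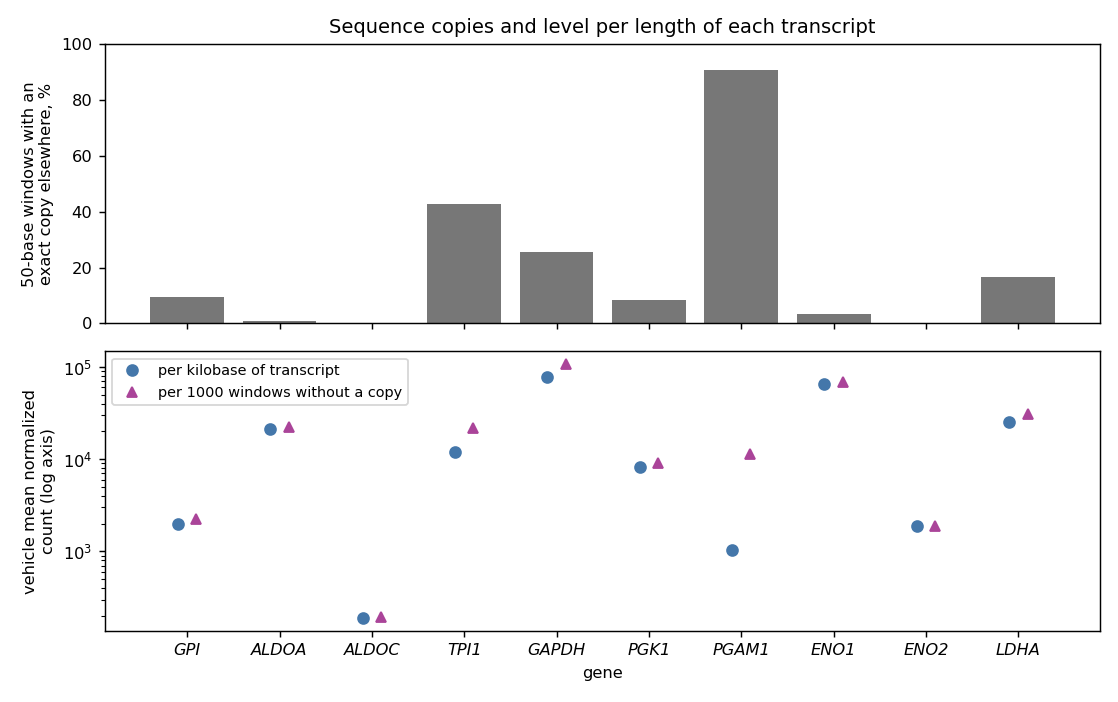
Top, percent of each transcript's 50-base stretches that have an exact copy elsewhere in GRCh37; bottom, vehicle mean normalized count per kilobase of transcript (circles) and per kilobase of stretches without a copy (triangles), on a log axis. PGAM1 has the highest bar, 90.7%, and the widest gap between circle and triangle, 1029 against 11373.

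Where a step has isoforms, their proportions lay apart between the treatments in all 3 pairs examined, by more than the gap between replicates. How often other pairs of genes lie apart in this way was not computed. Lactate dehydrogenase is a tetramer of LDHA and LDHB subunits, of which LDHB is the H subunit known from heart. The mean normalized count of LDHB was 39965 ± 1377 with vehicle and 36697 ± 910 after EC359 (SD, n = 2 per treatment), and LDHB was not called (log2 fold change -0.12, standard error 0.033, 95% interval from -0.20 to -0.049, adjusted p = 0.0657). Per kilobase, LDHA made up 45.0% and 45.1% of the sum of LDHA and LDHB in the vehicle libraries and 40.4% and 40.0% in the EC359 libraries. The LDHA share was thus 4.82 percentage points lower with EC359 (EC359 minus vehicle -4.82), more than 10 times the gap between replicates. ALDOC made up 0.901% and 0.849% of ALDOC and ALDOA with vehicle and 0.737% and 0.741% with EC359. The ALDOC share rests on only 232 to 273 ALDOC reads per library. The ENO2 share lay in the other direction, at 2.78% and 2.76% of ENO2 and ENO1 with vehicle and 2.96% and 2.96% with EC359. The 95% intervals of the log2 fold changes overlapped between ALDOC and ALDOA and between ENO2 and ENO1, but not between LDHA and LDHB. The exact two-sided permutation test gave p = 0.333 for each share, which is the smallest value this design allows.

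**Figure D4:**
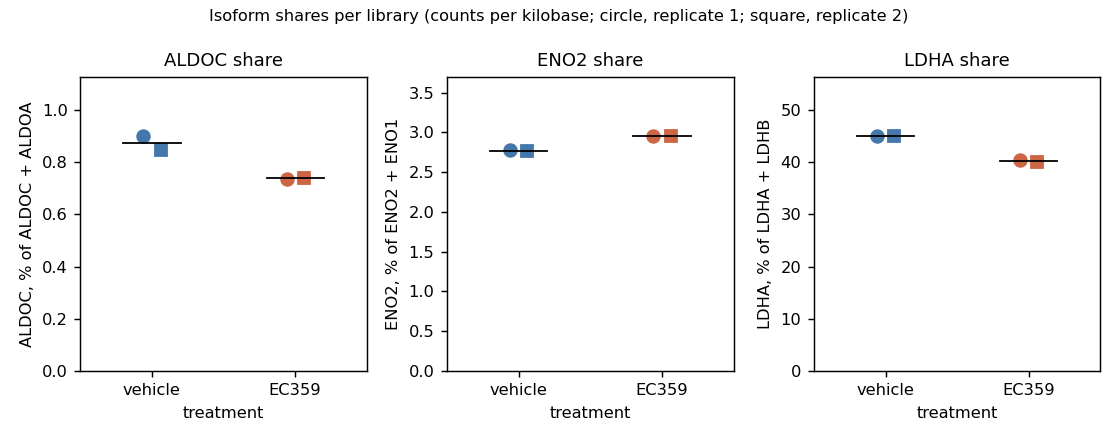
Share of an isoform in its pair, on counts per kilobase of transcript, in each library (circle, replicate 1; square, replicate 2; bar, mean). From left to right, ALDOC is near 0.875% with vehicle and 0.739% with EC359, ENO2 at 2.77% and 2.96%, and LDHA at 45.0% and 40.2%.

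Apart from LDHB, other isoforms of the same steps had few reads. Of these genes 5 could be tested: LDHB, LDHC, BPGM, ENO3 and PGAM4. None was called by edgeR's quasi-likelihood test, DESeq2, limma voom or edgeR's exact test, and 1, LDHB, had an unadjusted p under 0.05. The quasi-likelihood test called 0.795% of all tested genes lower and 0.299% higher. LDHC, the testis subunit that lies next to LDHA, had 157 and 171 reads with vehicle and 172 and 161 with EC359 (log2 fold change -0.27, adjusted p = 0.238). BPGM, which makes the bisphosphoglycerate that tunes hemoglobin, had 560 and 571 reads with vehicle and 816 and 720 with EC359 (log2 fold change 0.15, adjusted p = 0.259). ENO3, the muscle enolase, had 36 reads in each vehicle library and 57 in each EC359 library (log2 fold change 0.37, adjusted p = 0.352). PGAM4, a retrocopy of PGAM1, had from 9 to 16 reads (log2 fold change -0.069, adjusted p = 0.95). PGK2 and PGAM2 had at most 2 reads in any library, and GAPDHS, ENO4, LDHAL6A and LDHAL6B were listed at 0 in all 4.

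Pyruvate kinase and a regulator of phosphofructokinase were lower as well. Of 17 genes for glucose uptake, hexokinases, phosphofructokinases, their regulators and pyruvate kinase, 13 could be tested, with a median log2 fold change of -0.09. Of these 13, edgeR's quasi-likelihood test and limma voom called 2 lower, while DESeq2 and the exact test called 3. The quasi-likelihood test called 0.795% of all tested genes lower and 0.299% higher. PKM, listed under its older symbol PKM2, encodes the pyruvate kinase between enolase and lactate dehydrogenase and averaged 78731 normalized counts in vehicle and 65957 in EC359 libraries (log2 fold change -0.26, standard error 0.027, adjusted p = 0.00159). PFKFB4 encodes an enzyme that sets the level of a fructose bisphosphate that activates phosphofructokinase. That activator is not the fructose bisphosphate split by aldolase. PFKFB4 averaged 719 normalized counts in vehicle and 424 in EC359 libraries (log2 fold change -0.76, standard error 0.076, adjusted p = 0.00112). No gene of this list was called higher by edgeR's quasi-likelihood test, by DESeq2 or limma voom, and the exact test called 1. An unadjusted p under 0.05 was reached by 7 genes of negative and 2 of positive sign, beside 2750 of all 12706 tested genes. The 2 of positive sign were the hexokinase HKDC1 (log2 fold change 0.53, adjusted p = 0.0352) and PFKFB2 (log2 fold change 0.34, adjusted p = 0.166), both named after their values were seen.

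Routes that leave glycolysis showed few or no calls. Over all tested genes edgeR's quasi-likelihood test called 0.795% lower and 0.299% higher. At these shares few calls would fall in lists of this size, so the low counts are not particular to these routes. Of the 15 genes of the pentose phosphate, glycerol phosphate, serine and methylglyoxal routes, 14 were tested with a median log2 fold change of -0.064. Of these route genes 0 were called by any of the 4 tools, with 4 lower and 1 higher at an unadjusted p under 0.05. For this and the later lists, 2750 of all 12706 tested genes had such an unadjusted p, of either sign. GLO1, the glyoxalase that clears methylglyoxal and the most abundant of the route genes, had a log2 fold change of -0.10 (adjusted p = 0.0885). For the fates of pyruvate and lactate, 18 of 19 genes were tested with a median of -0.016, and 1 was called lower by edgeR's quasi-likelihood test, DESeq2 and limma voom, while the exact test called 2. No tool called any of them higher, and at an unadjusted p under 0.05, 2 were of negative and 2 of positive sign. The gene called by the quasi-likelihood test was PDK1, the kinase that turns off pyruvate dehydrogenase, which averaged 3041 normalized counts in vehicle and 2379 in EC359 libraries (log2 fold change -0.35, standard error 0.052, adjusted p = 0.00634). SLC16A1, a lactate carrier and the most abundant gene of that list, showed a log2 fold change of -0.0044 (adjusted p = 0.965). Named after their values were seen, the lactate carriers SLC16A3 and SLC16A7 had the most negative and the most positive fold change of the list, -0.37 (adjusted p = 0.0612) and 0.35 (adjusted p = 0.135), and neither passed the threshold. Among 20 TCA cycle genes the median was -0.030 and edgeR's quasi-likelihood test called 0, with 5 lower and 1 higher at an unadjusted p under 0.05. DESeq2 and limma voom called 0 and the exact test 1. CS, citrate synthase and the most abundant of these, had a log2 fold change of -0.12 (adjusted p = 0.0799). Of 6 gluconeogenic enzymes, G6PC3 and PCK2 were tested and neither had an unadjusted p under 0.05 or was called by any tool. G6PC3, the more abundant, had a log2 fold change of -0.054 (adjusted p = 0.644).

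**Figure D5:**
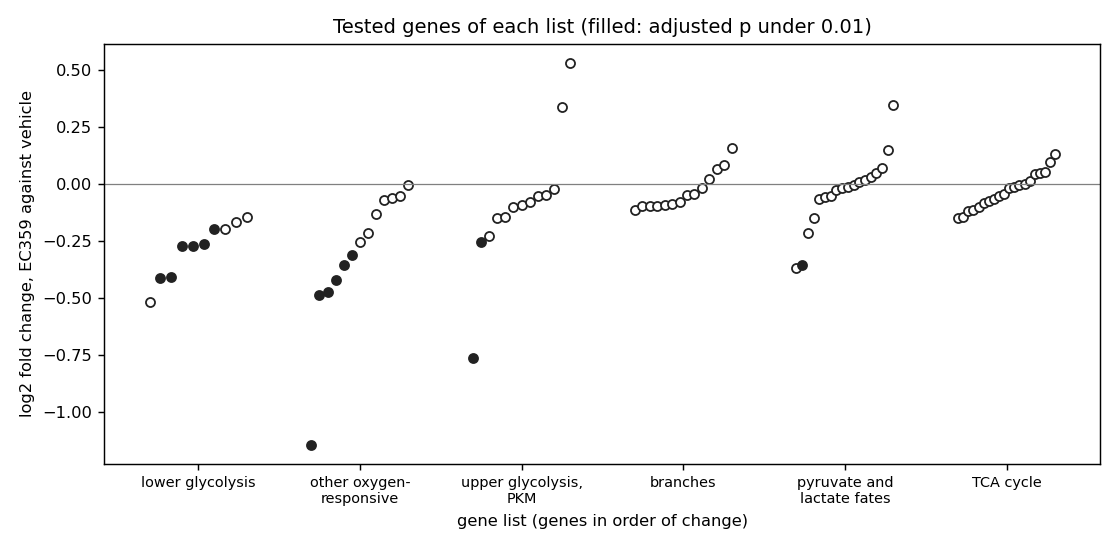
Log2 fold change of EC359 against vehicle for each tested gene of 6 lists, in order of change within a list, with filled points at an adjusted p under 0.01. The 10 lower glycolysis genes all lie below 0 with a median of -0.27, as do the 13 other oxygen-responsive genes with a median of -0.26, and the TCA cycle genes lie on both sides of 0 with a median of -0.030.

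Genes known to respond to oxygen in other processes were examined beside these. Of 15 such genes outside lower glycolysis, 13 were tested, all 13 had a negative fold change and 6 were called lower, PDK1 of the pyruvate list among them. Over all 12706 tested genes 6230 had a negative fold change and 0.795% were called lower. The list was written with earlier results of these data known. CA9, a carbonic anhydrase of the cell surface, had a log2 fold change of -1.14 (adjusted p = 0.00048), MXI1, a MYC antagonist, -0.49 (adjusted p = 0.00938), BNIP3, a mitophagy receptor, -0.48 (adjusted p = 0.00042), NDRG1 -0.42 (adjusted p = 0.00958), PDK1 -0.35 and P4HA1, a collagen prolyl hydroxylase, -0.31 (adjusted p = 0.00229). The tested genes of this list that were not called ranged down to almost no change. They were BNIP3L (log2 fold change -0.26), KDM3A (-0.22), VEGFA (-0.13), EGLN1 (-0.072), ANKRD37 (-0.060), P4HA2 (-0.051) and DDIT4 (-0.0054). For the transcripts of 8 factors known to act on glycolytic genes the median was 0.0049 on the log2 scale. None of them was called by edgeR's quasi-likelihood test, with 1 lower and 2 higher at an unadjusted p under 0.05, beside 2750 of all 12706 tested genes. DESeq2 and limma voom called 0 and the exact test 1, higher. HIF1A, the most abundant, averaged 16934 normalized counts in vehicle and 17853 in EC359 libraries (log2 fold change 0.076, 95% interval from 0.012 to 0.14, adjusted p = 0.164). Transcript levels do not measure the protein or its activity, and whether these factors have a part in the lower counts was not tested.

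Because PGK1 and LDHA had the lowest p values of the 10 genes, their promoter windows are shown beside those of ALDOC, the aldolase with the most negative fold change, and of LDHB, the isoform partner that was not called. The windows were thus picked by their genes' results, so they are examples and test nothing. The windows run from 250 bases before to 50 bases after the RefSeq gene start, on the gene's strand, in GRCh38.p14. Capitals mark ACGTG on either strand (read as CACGT on the opposite strand), the core letters of sites to which HIF1 is known to bind; CACGTG, the E-box to which MYC binds, contains the same letters on both strands and is counted once. In GRCh37 the GENCODE span of PGK1 runs on chromosome X from 77166236 to 77384792 and that of LDHA on chromosome 11 from 18416107 to 18429972. The span of ALDOC runs on chromosome 17 from 26900133 to 26903966 and that of LDHB on chromosome 12 from 21788276 to 21910791. These spans cover all annotated transcripts of a gene, so their ends need not be the RefSeq gene starts of the windows.
PGK1, chrX:78103998-78104297, plus strand: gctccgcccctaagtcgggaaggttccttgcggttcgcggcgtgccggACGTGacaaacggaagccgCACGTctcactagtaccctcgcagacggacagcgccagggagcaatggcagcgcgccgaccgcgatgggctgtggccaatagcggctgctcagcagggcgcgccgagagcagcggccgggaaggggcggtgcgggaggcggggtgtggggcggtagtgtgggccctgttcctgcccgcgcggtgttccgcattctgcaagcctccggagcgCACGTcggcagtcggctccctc
LDHA, chr11:18394313-18394612, plus strand: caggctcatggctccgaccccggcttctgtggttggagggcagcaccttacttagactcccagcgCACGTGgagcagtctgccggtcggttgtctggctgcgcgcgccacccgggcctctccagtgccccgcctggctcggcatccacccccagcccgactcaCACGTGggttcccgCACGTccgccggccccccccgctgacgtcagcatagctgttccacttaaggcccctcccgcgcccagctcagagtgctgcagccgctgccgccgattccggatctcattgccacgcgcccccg
ALDOC, chr17:28576846-28577145, minus strand: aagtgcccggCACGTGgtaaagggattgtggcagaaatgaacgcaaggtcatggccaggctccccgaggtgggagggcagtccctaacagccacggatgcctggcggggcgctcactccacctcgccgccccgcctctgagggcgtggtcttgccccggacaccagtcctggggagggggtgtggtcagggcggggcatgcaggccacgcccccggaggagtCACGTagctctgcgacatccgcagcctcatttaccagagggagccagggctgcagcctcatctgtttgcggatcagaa
LDHB, chr12:21657793-21658092, minus strand: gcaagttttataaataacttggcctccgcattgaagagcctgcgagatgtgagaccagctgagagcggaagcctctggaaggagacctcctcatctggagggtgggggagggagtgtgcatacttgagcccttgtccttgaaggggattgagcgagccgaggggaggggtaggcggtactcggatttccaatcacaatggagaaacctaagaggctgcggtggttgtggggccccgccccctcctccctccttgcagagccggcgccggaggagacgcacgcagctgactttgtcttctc

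The printed windows of PGK1 and LDHA each held 3 ACGTG sites, that of ALDOC held 2 and that of LDHB held 0. Only 3 windows of the lower glycolysis genes held at least 2 sites, namely these of PGK1, LDHA and ALDOC. The window of GAPDH, which was called lower, held 1 and is not printed. A window at another start of LDHA held 0, as did the window of TPI1, a called gene, that starts at 6867281. All 10 lower glycolysis genes had at least 1 window in the RefSeq set, 14 windows in all, and 10 of these 14 held ACGTG, covering 8 of the 10 genes. All windows of ALDOA held it, and those starting at 30064029 and 30064247 overlap, so the windows are not independent. In the whole set of 35116 windows 21.4% held it, and 3.4% held at least 2 sites. These are shares of windows, and the share of genes with such a window was not computed. The scanned windows of PGAM1 and ENO1 held 0 sites with these letters, although that of ENO1 held 2 sites of GCGTG, the other core sequence known for HIF1, which 36.5% of all windows held. For PGAM1 only the window chr10:97427568-97427867 was scanned. Whether it lies at the main start of the gene was not examined, so its 0 sites may not describe the main promoter. ENO1 was called lower and PGAM1 was not. PKM, which was also called lower, and LDHB, which was not, each had 0 ACGTG sites and 1 GCGTG site. These matches are descriptions of the letters in the windows, and binding was not measured.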

How the data were processed

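RNA was measured in ES2 cells with 2 libraries per treatment, all of which were used. The authors deposited raw counts, 1 value per gene symbol and library. From the submitters' processing notes and the study's methods, base calling used CASAVA 1.8.2, 50-base single reads were aligned to hg19 with TopHat2 2.0.8b, and HTSeq counted them on RefSeq genes. Rows that name no gene were kept out of library sizes: reads on no gene were 10.9% to 12.0% and ambiguous reads 0.852% to 0.879% of uniquely aligned reads.

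Genes passed filterByExpr (minimum count 10, minimum total 15) and were tested with edgeR 4.0.16 in R 4.3.3 (TMM factors, quasi-likelihood test without a replicate block, called at an adjusted p under 0.01). Standard errors are the size of the log2 fold change over the root of F, and intervals use the fit's total degrees of freedom. Replicates differed by more than sampling noise (chi-square per degree of freedom 3.81 for vehicle and 2.72 for EC359). Places, lengths and GC content came from GENCODE lifted to GRCh37, the assembly of hg19, which matched 91.8% of symbols. Named are the 10 genes, all other isoforms, and from each companion list the called genes and the most abundant one. Further companion genes, among them the oxygen-responsive genes that were not called, were named after their values were seen. Some genes of the isoform and marker lists are not reported here. The genes and lists were chosen with earlier results of these data known. The fit was also run on simulated data, and as the outcome is not reported here, it adds nothing to the results above. As alternatives, total counts, upper-quartile or RLE factors, other filters, DESeq2 1.42.0, limma 3.58.1 voom, the exact test, a replicate block, removal of GC or length trends, an adjusted p under 0.05 and the omission of each library were tried.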

Additional observations from a re-analysis of the deposited data

How the results depend on the processing

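All 10 lower glycolysis genes kept a negative fold change in each of 12 alternatives fitted to all 4 libraries and in each of 4 fits without a library. ALDOA, TPI1, GAPDH, PGK1, ENO1 and LDHA were called in all 12 of the former, GPI in 9, ALDOC and ENO2 in 4 and PGAM1 in 0, while DESeq2 gave ALDOC no adjusted p. With each library left out in turn, from 0 to 7 of the 10 were called, and their median log2 fold change ran from -0.268 to -0.242. With total counts only the median was -0.243. The exact test, the replicate block, GC trend removal and the block with GC trend removal each called 9. The numbers of the libraries are not stated to mark a shared batch and the study's methods name no replicate block, so the block was not used as the main result. Deviations of same-numbered libraries correlated at 0.0987 over genes, which does not show that such pairing is absent. Over all genes the count of 139 calls (101 lower, 38 higher) was less stable. With total counts only 68 were lower and 52 higher. No filter gave 61 calls over 16620 tested genes, DESeq2 230, the exact test 568, the replicate block 1539, GC trend removal 1192, the replicate block with GC trend removal 2032 and an adjusted p under 0.05 549. Leaving out each library gave from 0 to 467, with 0 without EC359 replicate 1 and 2 without EC359 replicate 2. The cause was not tested. The summed share differed by -0.22 percentage points with the members taken out of the denominator and by -0.235 with the effective library size, and the ENO2 share by 0.236 without length. Isoform shares counted on stretches without a copy, and the summed share without each library (from -0.218 to -0.212), both chosen after seeing the data, moved by less than the spread between replicates. With 2 libraries per treatment and from 232 to 273 reads, depth limits ALDOC most.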
